A study of Mus musculus with 12 samples.

Results

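Cell cycle and DNA replication genes were examined as a module of 40 named genes in mouse macrophage clones given LPS. Members were named with earlier results of these data known, by gene symbol and with no threshold on a measured value. Each was looked up in the main category of the array annotation, and a symbol with several features was represented by its brightest feature on average. This found 39 of the 40 members among 27296 genes tested, namely 15 G1 regulators, 12 replication genes and 12 mitosis genes. Ccnb1 matched no symbol and is not analysed here.

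The cells were MH-S, a cell line of mouse alveolar macrophages, from which 6 clones had been taken. The high clones were 69, 73 and 83, labelled as having high activity of IL-4Ra, the receptor chain through which macrophages sense IL-4 and IL-13; the low clones were 7, 29 and 75, labelled as having low activity. Every clone gave 1 array after 16 h with 0.2 µg/ml LPS of Salmonella Minnesota R595, a bacterial cell wall lipid sensed by TLR4, and 1 array of unstimulated cells. The 4 groups, each of 3 arrays, were thus high clones with LPS, high clones unstimulated, low clones with LPS and low clones unstimulated, all measured on Affymetrix Mouse Gene 2.1 ST arrays. All groups share 1 parental line, no allele or transgene is named, and the labels do not say how IL-4Ra activity was assessed. A clone is the replicate, and p-values rest on the spread between clones of that line within a group. Both arrays of a clone entered as separate values, except where the clone is given as a block or clone means are used.

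Proliferation is driven through G1 by D-type cyclins with Cdk4 and Cdk6 and by E-type cyclins with Cdk2, which inactivate the Rb proteins and so release E2F factors. E2F then turns on genes that license and copy DNA, while genes for mitosis are switched on later, in G2, largely through promoter elements called the CHR and the CCAAT box. LPS is known to slow the division of mouse bone marrow macrophages that are kept cycling by growth factor, and CDK inhibitors take part in that arrest. Whether these controls act in the same way in the MH-S line was not tested.

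Values are log2 levels from robust multi-array averaging (RMA). The 39 members had mean log2 levels between 7.28 and 11.78, and the lowest value on any array was 6.69. All genes tested had a median mean level of 4.42, and a mean of 5 or more was reached by 39 of 39 members and by 11794 genes overall. Array medians lay between 4.42 and 4.46; the SD of values on an array was 2.46 for the LPS array of clone 75 and 2.50 to 2.53 on the others. Of the macrophage markers, 9 of 10 were measured, none with a mean under 5 over all arrays. Cd68 ranged from 12.15 to 12.67, and Itgam from 4.13 to 6.54, with group means of 4.67 and 4.97 in low clones with LPS and unstimulated. Of 8 alveolar macrophage markers, Itgax, Pparg, Fabp4 and Mrc1 had means of 5 or more, with Mrc1 ranging from 3.74 to 9.19. Marco, Siglecf, Car4 and Chil3 had means under 5. All 6 lymphocyte markers, all 5 neutrophil markers and 6 of 8 fibroblast and epithelial markers also averaged under 5. With LPS the macrophage markers Adgre1 and Fcgr1 rose (by 1.03 and 0.68 log2). Cd68 and Mertk fell, as did the alveolar macrophage marker Pparg (by 1.33). Over all clones S100a8 rose by 1.00, Ly6g by 0.40, Dcn by 1.45 and Acta2 by 0.92. Group means of Dcn with LPS against unstimulated were 3.67 against 3.38 in high clones and 5.97 against 3.36 in low clones. The summed level of the neutrophil list was 6.56 to 6.77 in high LPS arrays against 6.04 to 6.21 in high unstimulated arrays, and 6.22 to 6.31 in low LPS arrays against 5.94 to 6.15 in low unstimulated arrays, in log2 of the sum. For the fibroblast and epithelial list the sum was 8.71 to 8.78 in high LPS arrays against 8.45 to 8.60 in high unstimulated arrays, and 8.58 to 9.51 in low LPS arrays against 8.45 to 8.50 in low unstimulated arrays. The part of these shifts in the results that follow was not tested.

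The promoters of the 7 replication and mitosis members that passed the LPS test over all clones are shown first. Those of the G1 regulators that passed are not shown. Whether the letters in these promoters bear on the LPS changes was not tested. Each is a RefSeq window on GRCm38.p6 of 250 bases before to 50 bases after the transcription start, read on the gene's strand. For the replication genes the windows are chr11:98907901-98908200 (plus strand) for Cdc6, chr1:20820263-20820562 (minus) for Mcm3 and chr5:30073576-30073875 (minus) for Tyms. Those of the mitosis genes are chr9:70421505-70421804 (minus) for Ccnb2, chr4:118437294-118437593 (minus) for Cdc20, chr7:135716330-135716629 (minus) for Mki67 and chr7:122159185-122159484 (plus) for Plk1. Capitals mark E2F letters (TTCCCGC or TTGGCGC, and also TTCGCGC or TTGCCGC), CHR letters (TTTGAA or TTCGAA) and the CCAAT box (CCAAT), each on either strand.
Cdc6: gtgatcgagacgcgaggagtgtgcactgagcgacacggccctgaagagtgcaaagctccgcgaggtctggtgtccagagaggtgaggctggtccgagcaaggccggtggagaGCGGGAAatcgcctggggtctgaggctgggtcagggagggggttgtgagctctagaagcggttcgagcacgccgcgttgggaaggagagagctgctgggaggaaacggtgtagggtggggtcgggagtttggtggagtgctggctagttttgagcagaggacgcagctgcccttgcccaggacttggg
Mcm3: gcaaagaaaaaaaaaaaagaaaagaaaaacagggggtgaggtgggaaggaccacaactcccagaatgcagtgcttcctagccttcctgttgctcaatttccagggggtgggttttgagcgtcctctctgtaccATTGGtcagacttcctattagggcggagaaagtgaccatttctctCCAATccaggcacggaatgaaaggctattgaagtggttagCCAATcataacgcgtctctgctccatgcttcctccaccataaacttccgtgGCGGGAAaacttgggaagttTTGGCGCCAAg
Tyms: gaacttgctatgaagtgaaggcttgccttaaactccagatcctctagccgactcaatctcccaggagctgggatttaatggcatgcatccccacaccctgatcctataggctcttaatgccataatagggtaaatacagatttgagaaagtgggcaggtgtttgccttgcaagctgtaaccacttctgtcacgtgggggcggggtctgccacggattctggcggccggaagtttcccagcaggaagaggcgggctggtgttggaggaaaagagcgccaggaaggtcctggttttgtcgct
Ccnb2: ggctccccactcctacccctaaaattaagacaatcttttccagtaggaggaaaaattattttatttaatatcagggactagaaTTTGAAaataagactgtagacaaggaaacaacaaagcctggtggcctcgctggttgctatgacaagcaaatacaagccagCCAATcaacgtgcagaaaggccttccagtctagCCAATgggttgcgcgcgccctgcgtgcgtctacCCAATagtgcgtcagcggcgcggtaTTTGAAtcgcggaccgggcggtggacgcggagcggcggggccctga
Cdc20: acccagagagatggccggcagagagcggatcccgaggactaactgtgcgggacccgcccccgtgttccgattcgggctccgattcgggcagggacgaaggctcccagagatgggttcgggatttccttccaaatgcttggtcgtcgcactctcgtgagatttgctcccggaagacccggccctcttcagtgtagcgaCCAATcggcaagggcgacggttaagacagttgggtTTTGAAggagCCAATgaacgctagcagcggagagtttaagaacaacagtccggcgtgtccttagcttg
Mki67: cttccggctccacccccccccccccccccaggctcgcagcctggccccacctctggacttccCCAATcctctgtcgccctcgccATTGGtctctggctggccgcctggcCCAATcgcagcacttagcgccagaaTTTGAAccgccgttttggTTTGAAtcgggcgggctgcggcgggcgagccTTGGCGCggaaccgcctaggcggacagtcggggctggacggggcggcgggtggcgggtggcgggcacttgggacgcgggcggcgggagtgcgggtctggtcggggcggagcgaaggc
Plk1: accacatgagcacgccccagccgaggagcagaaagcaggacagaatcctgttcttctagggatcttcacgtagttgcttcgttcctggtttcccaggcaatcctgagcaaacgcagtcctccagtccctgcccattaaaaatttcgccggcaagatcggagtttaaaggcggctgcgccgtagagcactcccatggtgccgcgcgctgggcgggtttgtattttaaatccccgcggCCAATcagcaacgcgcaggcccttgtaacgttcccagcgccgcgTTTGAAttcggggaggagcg

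In these windows, Cdc6 held E2F letters at -138 and none of the CHR or CCAAT letters. Positions are those of the first base of a match, counted without a 0, so that the first transcribed base is the first positive position. Mcm3 held E2F letters at 20, 40 and 43, the last 2 of which overlap, with CCAAT boxes at -117, -72 and -32. Tyms held none of these 3 kinds, and has the E-box CACGTG at -61. Ccnb2 had CHR letters at -167 and 5 and CCAAT boxes at -87, -54 and -21, Cdc20 had CHR letters at -18 and CCAAT boxes at -53 and -8, and Plk1 had CHR letters at 31 and a CCAAT box at -14. Mki67 combined CHR letters at -116 and -98 and CCAAT boxes at -188, -166 and -141 with E2F letters at -67. A RefSeq window was found for 11 of 15 G1 regulators, 11 of 12 replication genes and 10 of 12 mitosis genes; Aurkb, Ccna2, Ccnd1, Ccnd2, Ccne2, Mcm4 and Myc had no entry.

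E2F letters stood in 7 of 11 replication windows (63.6%), 4 of 11 windows of G1 regulators (36.4%) and 2 of 10 mitosis windows, beside 9.69% of all 27025 windows in the table. CHR letters stood in 9 of 10 mitosis windows (90%), 2 of 11 replication windows (18.2%) and 0 of 11 windows of G1 regulators, beside 19.4% of all windows. CCAAT boxes were in 90% of mitosis windows, 72.7% of replication windows and 36.4% of windows of G1 regulators, beside 37.9% of all. A wider list of 123 measured cell cycle genes that are not members, drawn up with the same results known, had E2F letters in 18 of 35 replication windows (51.4%), 9 of 28 windows of G1 regulators (32.1%) and 7 of 36 mitosis windows (19.4%). Its CHR letters stood in 25 of 36 mitosis windows (69.4%), 8 of 28 windows of G1 regulators (28.6%) and 6 of 35 replication windows (17.1%). Its CCAAT boxes stood in 69.4% of mitosis windows, 60.7% of windows of G1 regulators and 51.4% of replication windows, so the order of G1 regulators and replication genes differed from that among members for CHR letters and CCAAT boxes. The median GC content was 64.7% for G1 regulators, 57.3% for replication and 57.7% for mitosis members. In the wider list it was 62.2%, 63.7% and 61% in the same order, and all were above the 52.7% of all windows. These are matches of letters, not measured binding.

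**Figure D1:**
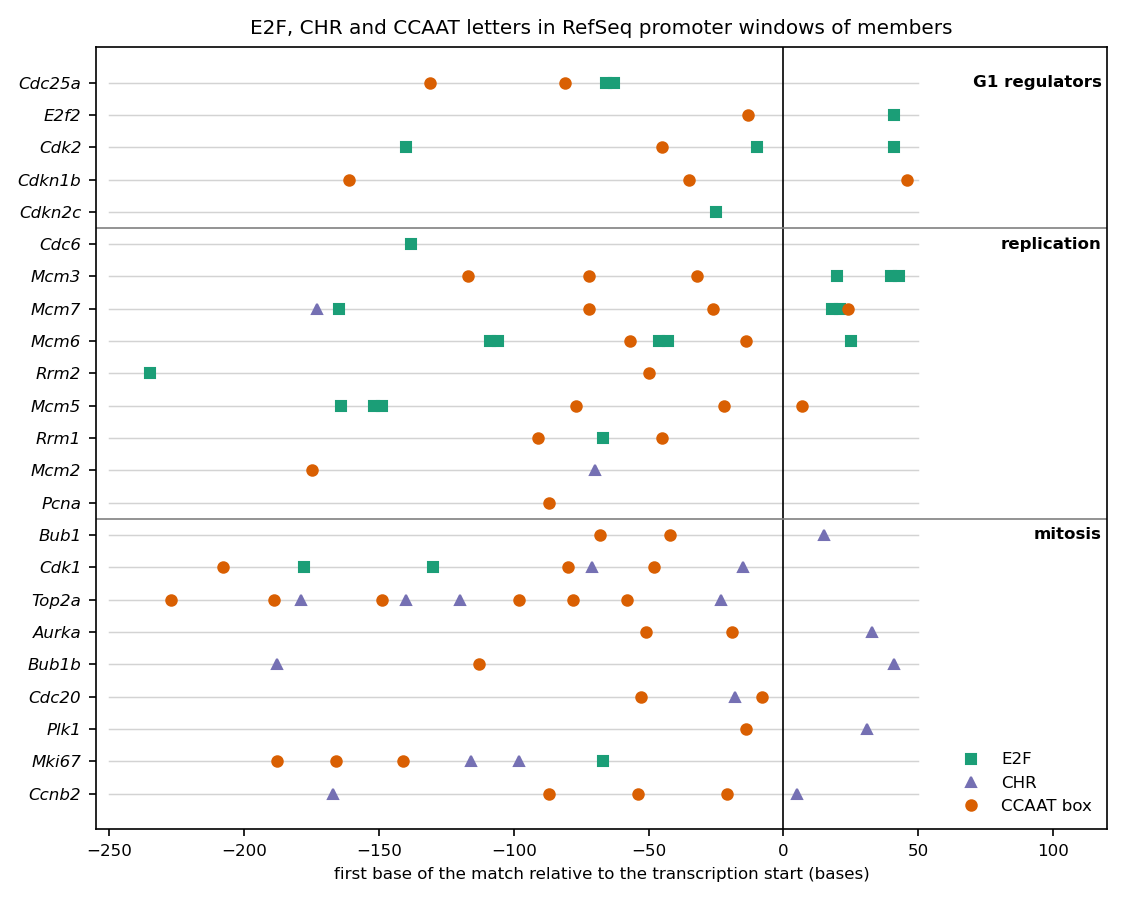
Positions of E2F letters (squares), CHR letters (triangles) and CCAAT boxes (circles) in the RefSeq promoter windows of members. Each line is 1 gene, in bases from the transcription start (vertical line at 0). Windows with none of these letters, such as that of Tyms, are not drawn. Triangles stand on 9 of the 10 mitosis windows examined, and squares on 7 of the 11 replication windows.

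With LPS, 13 of the 39 members passed the test over all clones, and the direction differed by role. Of 12 replication genes 3 rose and 0 fell, of 12 mitosis genes 0 rose and 4 fell, and of 15 G1 regulators 3 rose and 3 fell; the other 26 members did not pass. The largest changes were falls of Ccnd1 (cyclin D1), by 1.28 log2, and of the CDK inhibitor Cdkn2c, by 0.89, and a rise of the replication licensing factor Cdc6 by 0.73. The test was limma, with p-values adjusted by Benjamini-Hochberg across all genes and a threshold of 0.05; ± gives the SE of the fit. The members' shares, 15.4% higher and 17.9% lower, stood beside 5.72% higher and 6.72% lower among all genes tested, and beside 11.2% and 13.9% among the 11794 genes with a mean level of 5 or more; the shares of the module as a whole were thus near those of genes at such levels. With the clone as a block, 7 members rose and 7 fell, beside 7.16% and 8.82% of all genes. Median changes were 0.10 for replication, -0.10 for mitosis and 0.07 for G1 regulators, against -0.01 for all genes. The median of the G1 regulators was 0.02 without the clone 73 LPS array or the clone 83 unstimulated array. In a culture measured in bulk, fewer cells in a phase and less RNA per cell cannot be told apart.

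**Figure D2:**
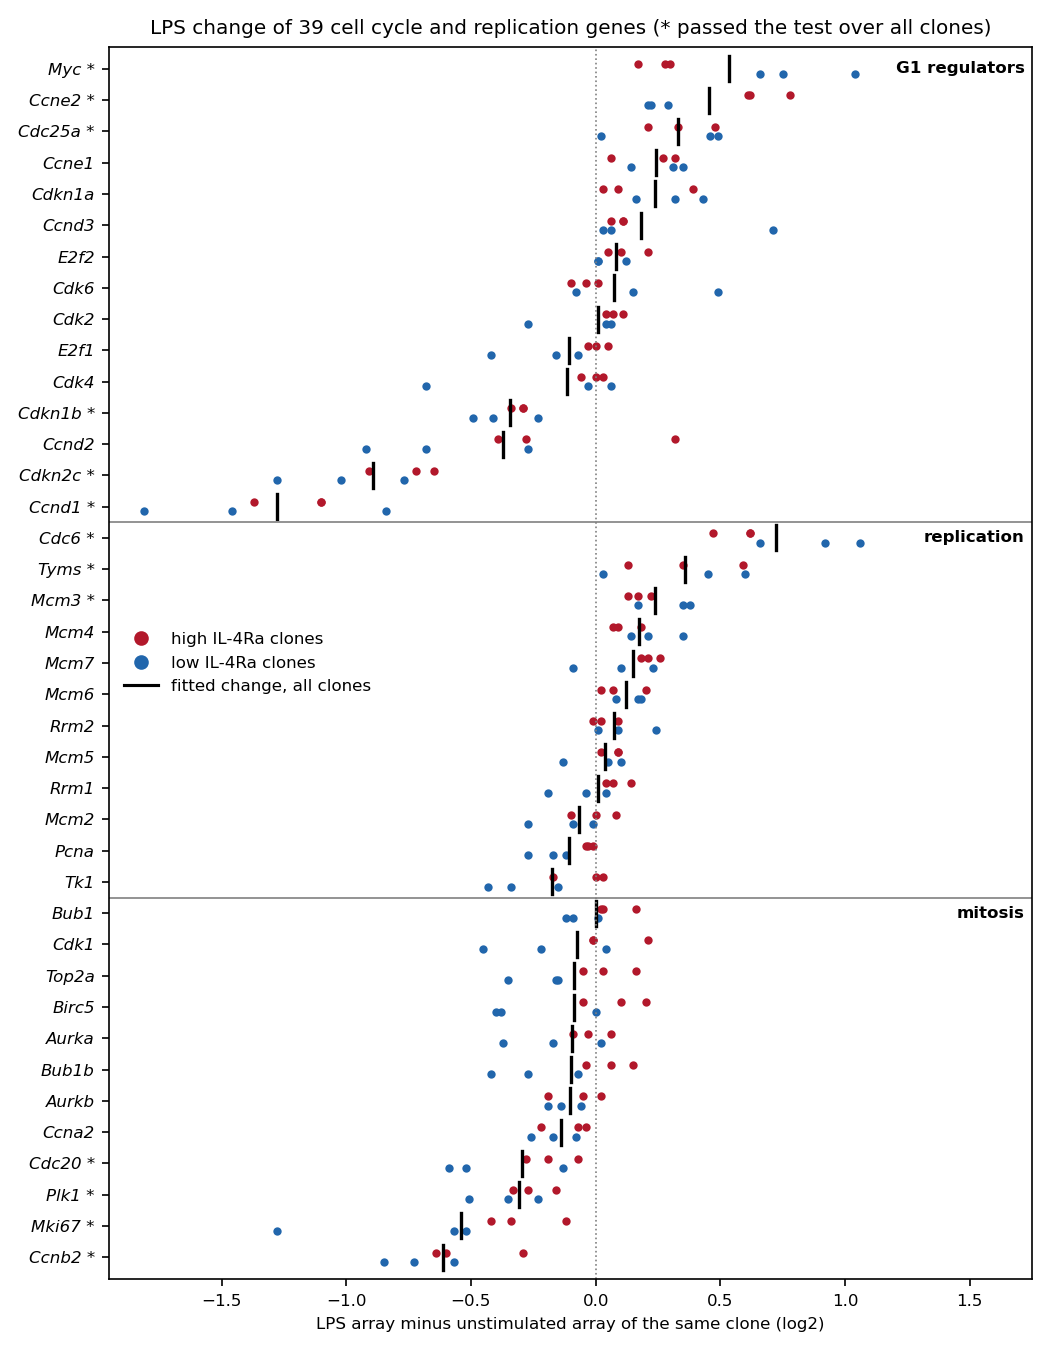
LPS array minus unstimulated array of the same clone, in log2, for the 39 members ordered by role and fitted change (black ticks), with high clones in red and low clones in blue; asterisks mark the 13 members that passed the test over all clones. Ccnd1 lay between -1.81 and -0.84 and Cdc6 between 0.47 and 1.06, and 5 of the 12 mitosis genes lay below 0 in all 6 clones.

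Among G1 regulators, the D-type cyclins, which start the G1 program with Cdk4 and Cdk6, did not move together. Values are given in the order of clones 69, 73 and 83 for high and 7, 29 and 75 for low clones. Ccnd1 (chr7:144929931-144939925, mm10) stood at 8.84, 9.47 and 9.45 in high LPS arrays against 10.21, 10.57 and 10.55 in high unstimulated arrays. Low clones had 7.99, 9.16 and 8.61 with LPS against 9.80, 10.00 and 10.07 unstimulated. Every LPS array lay under every unstimulated array, and the fitted change was -1.28 ± 0.18 (SE, 12 arrays of 6 clones), a 2.43-fold fall (adjusted p = 0.000294). Ccnd2 (chr6:127125167-127151048) stood at 9.50, 9.55 and 9.84 in high LPS arrays against 9.89, 9.23 and 10.12 in high unstimulated arrays. Low clones had 8.53, 9.09 and 8.89 with LPS against 9.21, 9.36 and 9.81 unstimulated. It was lower with LPS in 5 of 6 clones and did not pass (-0.37 ± 0.16, adjusted p = 0.171); without the unstimulated array of clone 73, the clone in which it was higher with LPS, it passed (-0.50, adjusted p = 0.0335). Ccnd3 (chr17:47505051-47599689) had 8.59, 8.45 and 8.48 in high LPS arrays against 8.53, 8.34 and 8.37 in high unstimulated arrays. Low clones had 8.33, 8.56 and 9.22 with LPS against 8.30, 8.50 and 8.51 unstimulated. That gene was higher with LPS in 6 of 6 clones, by 0.03 to 0.71, with the 0.71 in clone 75, and did not pass (0.18 ± 0.13, adjusted p = 0.452).

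The E-type cyclins were higher with LPS in every clone, and Ccne2 passed. Ccne2 (cyclin E2, chr4:11191351-11204779) read 8.79, 8.51 and 8.27 in high LPS arrays against 8.17, 7.73 and 7.66 in high unstimulated arrays. Low clones had 8.54, 8.71 and 8.33 with LPS against 8.33, 8.42 and 8.11 unstimulated. LPS and unstimulated arrays did not overlap in high clones and did in low clones, where the clones differed at rest by as much as they changed. The fitted change was 0.46 ± 0.12 (adjusted p = 0.022), and it was lost in 8 of 18 fits that left out an array or a clone (adjusted p 0.0549 to 0.0933): without the LPS array of clone 69 or 29, the unstimulated array of clone 73, 83 or 75, or both arrays of clone 73, 7 or 29. Ccne1 (cyclin E1) was higher with LPS by 0.06 to 0.35 in the 6 clones, and its change of 0.24 passed only with the clone as a block (adjusted p = 0.132 without the block and 0.0451 with it). Cdk2, Cdk4 and Cdk6, the kinases these cyclins activate, did not pass, with fitted changes of 0.01, -0.11 and 0.07.

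Of the CDK inhibitors, Cdkn2c (p18, an inhibitor of Cdk4 and Cdk6) and Cdkn1b (p27, an inhibitor of Cdk2) fell. Cdkn2c (chr4:109660876-109667189) stood at 9.61, 9.78 and 9.78 in high LPS arrays against 10.52, 10.50 and 10.43 in high unstimulated arrays. Low clones had 9.74, 10.08 and 9.61 with LPS against 10.76, 10.85 and 10.89 unstimulated. No LPS array reached an unstimulated one, and the change was -0.89 ± 0.08, a 1.86-fold fall (adjusted p = 1.59e-05). Cdkn1b (chr6:134920401-134925525) had 7.89, 7.90 and 7.62 in high LPS arrays against 8.23, 8.19 and 7.91 in high unstimulated arrays. Low clones had 7.95, 8.02 and 7.83 with LPS against 8.36, 8.25 and 8.32 unstimulated. Each clone was lower with LPS, by 0.23 to 0.49, although the unstimulated array of clone 83 lay within the range of the LPS arrays. The fitted change of -0.34 ± 0.08 (adjusted p = 0.0146) was lost without both arrays of clone 69, 7 or 75 (adjusted p 0.0502 to 0.0695). Cdkn1a (p21), which arrests cells after DNA damage and in differentiation, was higher with LPS in 6 of 6 clones by 0.03 to 0.43 and did not pass (0.24 ± 0.13, adjusted p = 0.316).

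Myc, the growth-promoting transcription factor, and Cdc25a, the phosphatase that removes inhibitory phosphate from Cdk2, rose. Myc (chr15:61985341-61990374) read 7.91, 7.86 and 8.20 in high LPS arrays against 7.61, 7.69 and 7.92 in high unstimulated arrays. Low clones had 7.84, 7.89 and 7.73 with LPS against 7.18, 7.14 and 6.69 unstimulated. The low unstimulated arrays stood apart below all others. The change was 0.53 ± 0.10 (adjusted p = 0.00349), and it did not pass in the methods' t-test on untransformed values (adjusted p = 0.117) nor in the authors' deposited table (q = 0.106). Cdc25a (chr9:109875579-109893890) had 10.12, 10.09 and 10.09 in high LPS arrays against 9.79, 9.61 and 9.88 in high unstimulated arrays. Low clones had 10.18, 10.22 and 9.82 with LPS against 9.72, 9.73 and 9.80 unstimulated. Clone 75 was alone in showing almost no difference (0.02). The fitted change of 0.33 ± 0.08 (adjusted p = 0.018) was lost without both arrays of clone 69, 73, 7 or 29 (adjusted p 0.0665 to 0.0984). E2f1 and E2f2, activators of S phase genes, had fitted changes of -0.11 and 0.08 and did not pass.

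The replication genes that rose were Cdc6, which loads the MCM helicase at origins, Tyms, which makes thymidylate, and Mcm3, a subunit of that helicase. Cdc6 (chr11:98907801-98923942) stood at 9.54, 9.91 and 9.33 in high LPS arrays against 8.92, 9.29 and 8.86 in high unstimulated arrays. Low clones had 9.85, 9.70 and 9.91 with LPS against 8.93, 9.04 and 8.85 unstimulated. All 6 LPS arrays lay above all 6 unstimulated arrays, with a change of 0.73 ± 0.11, a 1.65-fold rise (adjusted p = 0.000548). Tyms (chr5:30058200-30073625) had 9.89, 10.03 and 9.69 in high LPS arrays against 9.30, 9.68 and 9.56 in high unstimulated arrays. Low clones had 9.94, 9.95 and 9.64 with LPS against 9.49, 9.35 and 9.61 unstimulated. Its arrays overlapped between conditions, and clones 83 and 75 differed by only 0.13 and 0.03. The change of 0.36 ± 0.10 (adjusted p = 0.0262) was lost in 11 of 18 fits that left out an array or a clone (adjusted p 0.0506 to 0.137): without the LPS array of clone 69, 73, 7 or 29, the unstimulated array of clone 69, 7 or 29, or both arrays of clone 69, 73, 7 or 29. It was also lost when Tyms was taken as the mean of its features (0.13, adjusted p = 0.464).

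Mcm3 (chr1:20802974-20820278) read 10.26, 10.35 and 10.28 in high LPS arrays against 10.13, 10.18 and 10.06 in high unstimulated arrays. Low clones had 10.39, 10.35 and 10.43 with LPS against 10.01, 10.18 and 10.08 unstimulated. The ranges did not overlap, and the change was small (0.24 ± 0.06, a 1.18-fold rise, adjusted p = 0.0267). Leaving out an array or a clone ended the call in 10 of 18 fits (adjusted p 0.0536 to 0.123), namely the LPS array of clone 73 or 7, the unstimulated array of clone 83, 7 or 75, or both arrays of clone 69, 73, 83, 7 or 75. Of the other MCM subunits, Mcm4 and Mcm6 were higher with LPS in 6 of 6 clones, Mcm5 and Mcm7 in 5 of 6, and Mcm2 in 1 of 6; their fitted changes ran from -0.07 (Mcm2) to 0.17 (Mcm4), and none passed. Pcna, the sliding clamp of the polymerases, was lower with LPS in 6 of 6 clones by 0.01 to 0.27 without passing (-0.11, adjusted p = 0.446). The ribonucleotide reductase genes Rrm1 and Rrm2 (0.01 and 0.07) and the thymidine kinase Tk1 (-0.18, adjusted p = 0.287) did not pass.

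Among the mitosis genes, Ccnb2 (cyclin B2, a partner of Cdk1), Mki67 (Ki-67, which coats mitotic chromosomes), Plk1 (a mitotic kinase) and Cdc20 (an activator of the anaphase-promoting complex) fell. Ccnb2 (chr9:70407689-70421554) stood at 10.74, 10.67 and 11.02 in high LPS arrays against 11.34, 11.31 and 11.31 in high unstimulated arrays. Low clones had 10.52, 10.76 and 10.65 with LPS against 11.37, 11.33 and 11.38 unstimulated. At rest the 6 clones lay within 11.31 to 11.38, and every clone was lower with LPS (-0.61 ± 0.08, a 1.53-fold fall, adjusted p = 0.000142). Mki67 (chr7:135689788-135716379) had 10.71, 10.56 and 10.75 in high LPS arrays against 11.05, 10.98 and 10.87 in high unstimulated arrays. Low clones had 10.55, 10.69 and 9.92 with LPS against 11.12, 11.21 and 11.20 unstimulated. The arrays did not overlap and the lowest value was that of clone 75, which changed by -1.28; over all clones the change was -0.54 ± 0.11 (adjusted p = 0.00645).

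Plk1 (chr7:122159437-122169875) read 10.90, 10.76 and 11.00 in high LPS arrays against 11.23, 11.03 and 11.16 in high unstimulated arrays. Low clones had 10.67, 10.94 and 10.91 with LPS against 11.18, 11.17 and 11.26 unstimulated. The LPS arrays reached up to 11.00 and the unstimulated ones began at 11.03. The change of -0.31 ± 0.08 (adjusted p = 0.017) was lost without both arrays of clone 69 or 7 (adjusted p 0.0773 and 0.0787). Cdc20 (chr4:118432901-118437352) had 11.22, 11.13 and 11.41 in high LPS arrays against 11.41, 11.41 and 11.48 in high unstimulated arrays. Low clones had 10.88, 11.27 and 10.76 with LPS against 11.40, 11.40 and 11.35 unstimulated. Here the LPS array of clone 83 lay among the unstimulated arrays, and the call was close to the threshold (-0.30 ± 0.09, adjusted p = 0.0486). It was lost in 15 of 18 fits that left out an array or a clone (adjusted p 0.0762 to 0.178), and held only without the LPS array of clone 83, the LPS array of clone 29 or both arrays of clone 29. The other 8 measured mitosis genes, Cdk1, Ccna2, Top2a, Aurka, Aurkb, Bub1, Bub1b and Birc5, had fitted changes between -0.14 and 0.00 and none passed; of these, Ccna2 was lower with LPS in all 6 clones (by 0.04 to 0.26).

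**Figure D3:**
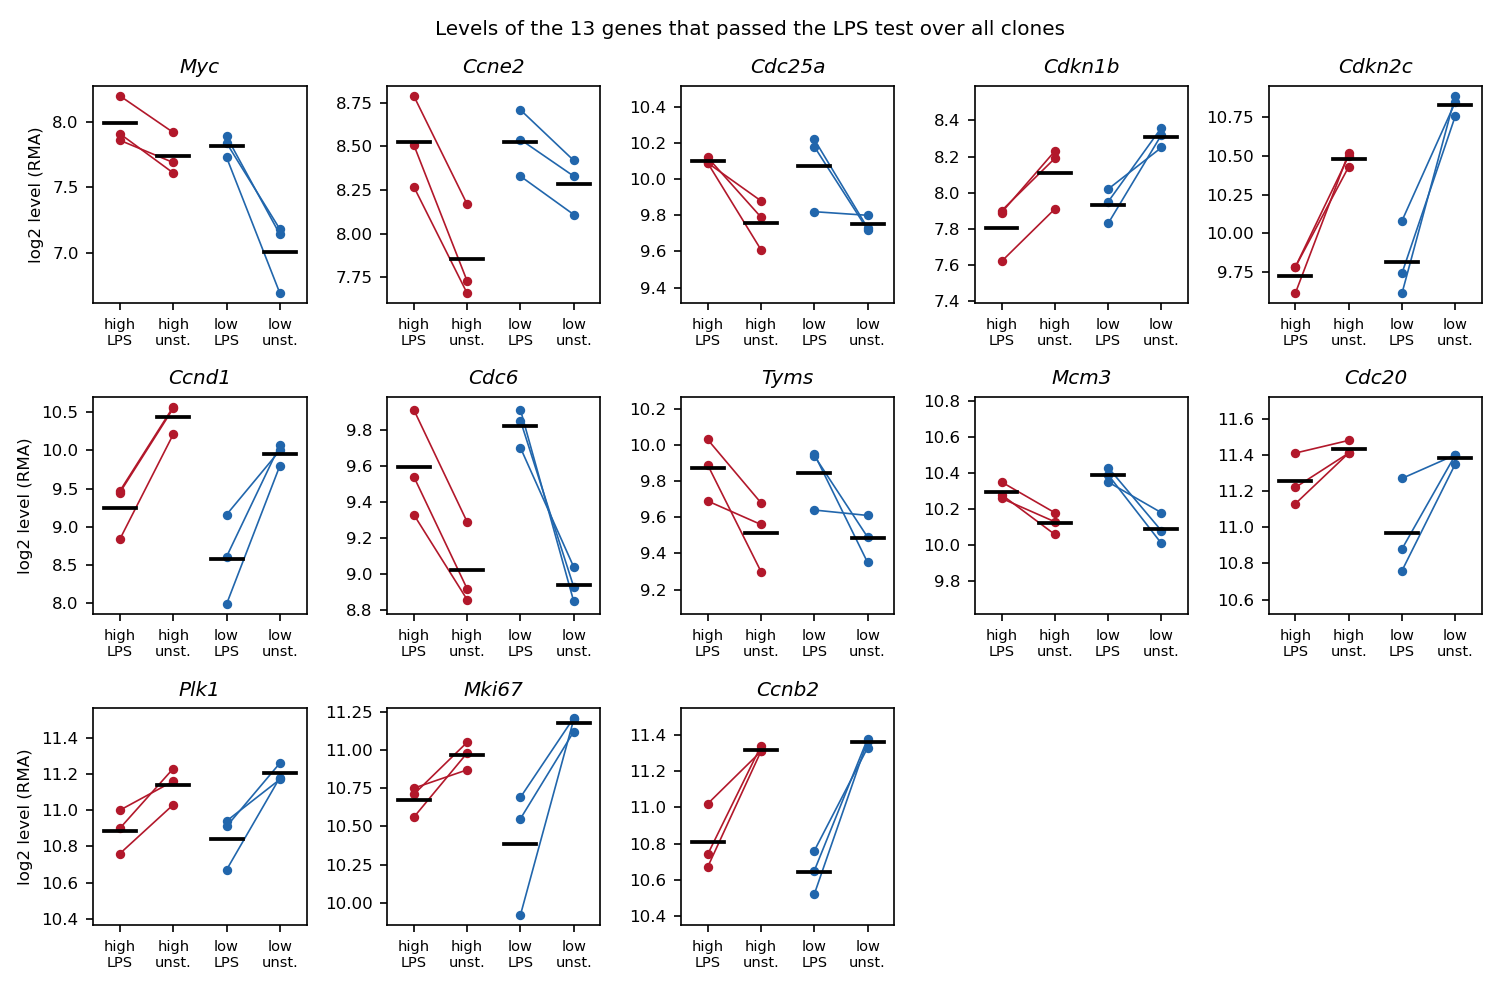
Log2 levels of the 13 members that passed the LPS test over all clones, 1 panel each with its own axis, in high clones with LPS, high clones unstimulated, low clones with LPS and low clones unstimulated; lines join both arrays of a clone and bars are group means. Ccnb2 is tight at rest (11.31 to 11.38) and Myc is lowest in the low unstimulated arrays (6.69 to 7.18).

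Clones were also counted. The LPS array was the higher one in all 6 clones for 7 G1 regulators, 5 replication genes and 0 mitosis genes, and the lower one in all 6 for 3, 1 and 5 of them; 9.22% of all genes were higher and 11.2% lower in all 6 clones. Within each clone, the median change of the replication members was above that of the mitosis members. For clones 69, 73, 83, 7, 29 and 75 it was 0.135, 0.03, 0.07, 0.14, 0.065 and -0.03 for replication, and -0.05, -0.14, 0.005, -0.265, -0.135 and -0.375 for mitosis. The median over all genes stayed between -0.025 and 0 in each clone.

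Leaving out clones changed the number of members that passed. Over all clones it was 7 without clone 69, 8 without clone 73 and 6 without clone 7, against 13 with all arrays. Ccnd1, Cdkn2c, Cdc6, Myc, Ccnb2 and Mki67 passed in each of the 18 fits that left out an array or a clone, with adjusted p up to 0.04 (Mki67).

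In the wider cell cycle list, too, more replication genes rose than fell and more mitosis genes fell than rose; the list was drawn up with earlier results known and is no independent support. Of its 45 measured replication genes, 15 rose and 1 fell (33.3% and 2.22%, median change 0.195). Of its 45 mitosis genes, 2 rose and 15 fell (4.44% and 33.3%, median -0.15). Among all genes 5.72% rose and 6.72% fell, and among those with a mean level of 5 or more 11.2% and 13.9%. The 33 G1 regulators gave 5 rises and 6 falls (median 0.06, and 0.01 to 0.08 with an array or clone left out, lowest without the clone 69 LPS array). The largest rises included those of Btg1, an antiproliferative gene (0.89 ± 0.14, adjusted p = 0.001), and Gadd45a, a growth arrest and DNA damage gene (0.72 ± 0.15, adjusted p = 0.00609). The 3 largest falls were those of the CDK inhibitor Cdkn2d (-0.72 ± 0.13, adjusted p = 0.00271), the cytokinesis kinesin Kif23 (-0.54 ± 0.11, adjusted p = 0.00517) and the retinoblastoma gene Rb1 (-0.51 ± 0.10, adjusted p = 0.00341). The replication gene that fell was the GINS subunit Gins3 (-0.27), and the mitosis genes that rose were the centriole kinase Plk4 (0.32) and the cohesin protector Cdca5 (0.33); these 3 were singled out after their values were seen. The median changes by clone were 0.17 to 0.24 for replication and -0.45 to -0.04 for mitosis in this list. The 15 falls among its mitosis genes became 9 when the clone 73 LPS array, the clone 29 unstimulated array, clone 69 or clone 73 was left out. They became 8 when clone 7 or clone 75 was. The median of these mitosis genes was -0.235 without clone 29 and -0.08 without clone 75, the extremes over the 18 fits.

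**Figure D4:**
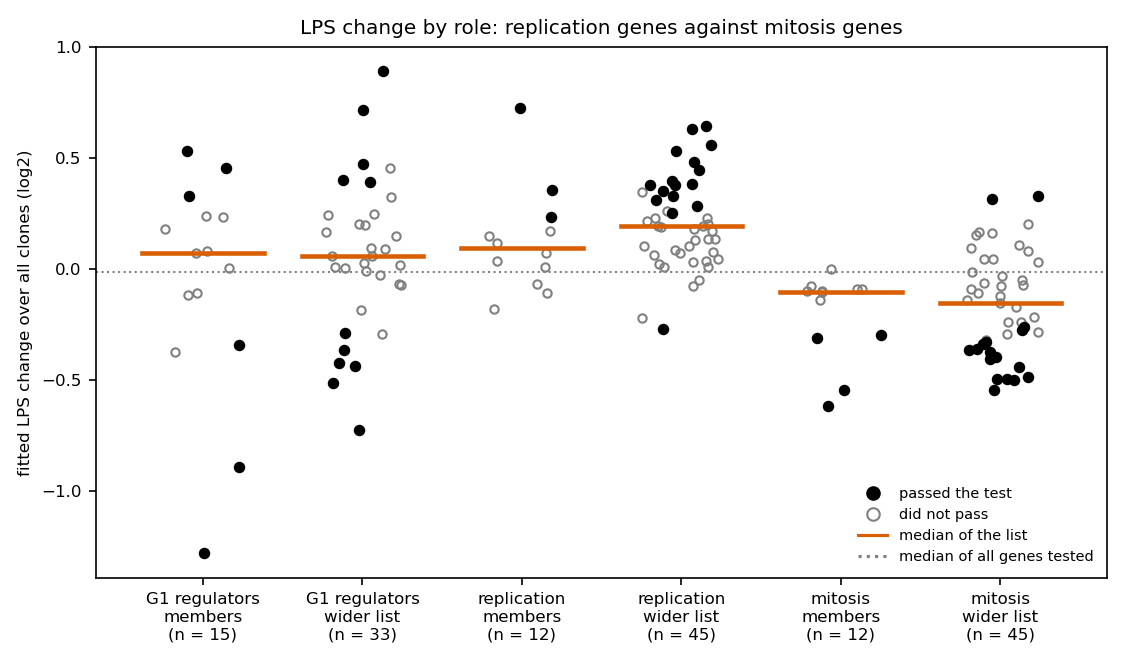
Fitted LPS change over all clones (log2) for members and for the wider cell cycle list, by role; filled points passed the test, orange bars are list medians and the dotted line is the median of all genes tested (-0.01). The replication lists lie mostly above 0 (medians 0.10 and 0.195) and the mitosis lists mostly below (medians -0.10 and -0.15).

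In the low clones alone, Cdc6 (0.88 ± 0.15, adjusted p = 0.00288) and Myc (0.82 ± 0.15, adjusted p = 0.00343) rose with LPS. The members that fell there were Ccnd1 (-1.37 ± 0.25, adjusted p = 0.00385), Cdkn2c (-1.02 ± 0.12, adjusted p = 0.000174), Mki67 (-0.79 ± 0.16, adjusted p = 0.00837) and Ccnb2 (-0.72 ± 0.11, adjusted p = 0.00116). These were 2 rises (5.13%) and 4 falls (10.3%) among the members, beside 3.59% and 4.13% of all genes. Among genes with a mean level of 5 or more the shares were 7.05% and 8.78%, so those of the members were near them. With the clone as a block, 2 rose and 8 fell, beside 4.77% and 6.06% of all genes; the falls added were those of Ccnd2 (-0.62, adjusted p = 0.128 without the block and 0.041 with it), Cdc20 (-0.41, 0.0718 and 0.0491), Cdkn1b (-0.38, 0.0728 and 0.0328) and Plk1 (-0.36, 0.0608 and 0.0441), all adjusted p. All 12 mitosis members had a fitted change below 0 in low clones (median -0.24, against -0.01 over all genes). Without both arrays of clone 75, the calls of Ccnd1 (adjusted p = 0.06) and Cdc6 (adjusted p = 0.0564) were lost. Those of Cdkn2c, Ccnb2, Mki67 and Myc held in each of the 18 fits that left out an array or a clone. Leaving out arrays also brought in members: Cdc20 passed without the LPS array or both arrays of clone 29 (adjusted p 0.0102 and 0.0378), and Cdc25a without the LPS array or both arrays of clone 75 (0.0239 and 0.0492); Cdkn1b passed without clone 83 (0.0409).

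In the wider list, 10 replication genes rose in low clones and 1 fell (22.2% and 2.22%). Of its mitosis genes, 1 rose and 12 fell (2.22% and 26.7%). Among all genes 3.59% rose and 4.13% fell, and among those with a mean level of 5 or more 7.05% and 8.78%. The replication gene that fell was Dbf4 (-0.47), an activator of the origin-firing kinase Cdc7, and the mitosis gene that rose was again Cdca5 (0.41), both singled out after their values were seen. The largest rises included those of Btg1 (0.81 ± 0.20, adjusted p = 0.0273) and the fork protection gene Timeless (0.67 ± 0.11, adjusted p = 0.00145), and the largest falls those of Cdkn2d (-0.85 ± 0.19, adjusted p = 0.0144), Kif23 (-0.82 ± 0.16, adjusted p = 0.00545) and Rb1 (-0.68 ± 0.14, adjusted p = 0.00869). The 12 falls of mitosis genes became 1 without clone 7 and 2 without clone 75. They became 6 without the clone 7 LPS array, 5 without the clone 75 LPS array, 5 without the unstimulated array of clone 7 or 29 and 4 without that of clone 75. The 10 rises of replication genes became 4 without clone 7 or 75. They became 6 when either array of clone 7 or the clone 75 LPS array was left out, and 5 without the clone 75 unstimulated array. Btg1 lost its call in 8 of 18 fits (adjusted p 0.0573 to 0.169), namely whenever a low clone or a low array was left out, except the clone 75 LPS array. Cdkn2d lost it without the clone 75 LPS array, the clone 29 unstimulated array, clone 7 or clone 75 (0.0578 to 0.125). Rb1 lost it without clone 29 or 75 (0.0596 to 0.0716).

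In the high clones alone, Ccne2 rose (0.67 ± 0.17, a 1.59-fold rise, adjusted p = 0.0423), and Ccnd1 (-1.19 ± 0.25, adjusted p = 0.0169), Cdkn2c (-0.76 ± 0.12, adjusted p = 0.00302) and Ccnb2 (-0.51 ± 0.11, adjusted p = 0.0186) fell. These were 2.56% and 7.69% of the members, beside 1.82% and 2.06% of all genes and 3.78% and 4.49% of genes with a mean level of 5 or more. Cdc6 was higher by 0.57 ± 0.15 and passed with the clone as a block (adjusted p = 0.0589 without it and 0.0126 with it). It also passed once the clone 83 LPS array (0.0311) or the clone 73 unstimulated array (0.0352) was dropped. With the block, 2 members rose and 3 fell. The mitosis members had 5 fitted changes above 0 and 7 below, with a median of -0.05. That median was -0.12 without the clone 83 LPS array or the clone 73 unstimulated array, -0.11 without the clone 69 LPS array and -0.09 without clone 83. It was -0.03 without the clone 73 LPS array or the unstimulated array of clone 69 or 83, and -0.01 without clone 73. The count of 4 members changed when a single array or clone was left out, while the direction of each fitted change stayed the same. It was 0 without clone 69 and 1 when clone 73, the clone 69 LPS array or the clone 83 unstimulated array was left out. It was 2 when clone 83 or either array of clone 73 was left out. Ccne2 lost its call in 12 of 18 fits (adjusted p 0.055 to 0.265): those lacking the LPS array of clone 69, 73 or 7, the unstimulated array of clone 73, 83, 7 or 29, or all of clone 69, 73, 83, 7 or 29. Ccnb2 lost it in 7 (0.0529 to 0.173): those lacking the LPS array of clone 69 or 73, any high unstimulated array, or all of clone 69 or 73. Ccnd1 lost it in 6 (0.06 to 0.108): those lacking the clone 69 LPS array, the unstimulated array of clone 73 or 83, or all of a high clone. Cdkn2c lost it without clone 69 (0.059).

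In the wider list, 6 of 123 genes rose in high clones and 1 fell, beside 1.82% and 2.06% of all genes. Of genes with a mean level of 5 or more, 3.78% rose and 4.49% fell. The rises of the list as a whole were near that share, and its falls were below it. With the clone as a block the list gave 12 rises, 9 of them replication genes, and 1 fall, beside 3.04% and 3.62% of all genes. The replication genes that rose included the origin recognition genes Orc1 (0.62 ± 0.11, adjusted p = 0.0063) and Orc6 (0.42) and the helicase activator Mcm10 (0.45). Btg1 (0.97 ± 0.20, adjusted p = 0.0176) and Gadd45a (0.93 ± 0.21, adjusted p = 0.0273) rose as well. The fall without the block was that of the cyclin G gene Ccng2 (-0.44 ± 0.11, adjusted p = 0.039), lost with the block (0.0591), and the fall with the block was that of Cdkn2d (-0.60, adjusted p = 0.119 without it and 0.0264 with it). Leaving out arrays or clones ended the call of Ccng2 in 14 of 18 fits (adjusted p 0.0512 to 0.321), of Gadd45a in 8 (0.0514 to 0.276), of Btg1 in 4 (0.0689 to 0.0803) and of Orc1 without clone 69 or 73 (0.0788 to 0.0934). None of the 45 mitosis genes passed in limma with or without the block in the high clones; their median change was -0.09, with 16 above and 29 below 0. Dropping the clone 73 LPS array turned that median to 0.01, with 25 above 0. The 4 rises of replication genes became 0 without clone 69 or 73 and 1 without clone 83. They became 2 without the clone 69 LPS array or the clone 83 unstimulated array, and 6 without the clone 69 unstimulated array.

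Whether the LPS responses of high and low clones differed was tested as an interaction. No member passed in limma, with the clone as a block or without it, beside 0% of all genes higher and 0.011% lower (0.00366% and 0.0513% with the block). At an unadjusted p under 0.05 there were 2 of 39 members, beside 4.73% of all genes. These were Myc (-0.57 ± 0.21) and Mki67 (0.50 ± 0.23), both with an adjusted p of 0.983. A difference of responses is high minus low, so Myc was raised less and Mki67 lowered less in the fitted values of high clones. All 12 mitosis members had a fitted difference above 0 (median 0.22), as had 41 of 45 mitosis genes of the wider list (median 0.18) and 13813 of all 27296 genes. For the replication genes 6 of 12 members and 20 of 45 of the wider list were above 0. Without both arrays of clone 75, whose LPS array had the lowest SD, the mitosis medians were 0.15 for members and 0.125 for the wider list, with 12 of 12 and 36 of 45 above 0. Over all 18 fits that left out an array or a clone, the members' median lay between 0.14 and 0.29, with 11 or 12 of 12 above 0, and the median of the wider list between 0.11 and 0.25, with 35 to 43 of 45 above 0.

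High and low clones were then compared within each condition. With LPS, no member passed in limma, with the clone as a random block or without it, beside 0.982% of all genes higher and 0.333% lower (0.996% and 0.344% with the block). At an unadjusted p under 0.05 there were 6 of 39 members, beside 10.9% of all genes in either direction. All 6 were higher in high clones: Ccnd2, Ccnd1, Birc5, Cdk1, Cdc20 and Bub1b. Birc5 (survivin, part of the chromosomal passenger complex) read 8.76, 9.12 and 8.90 in high LPS arrays against 8.40, 8.63 and 8.24 in low LPS arrays; these do not overlap, and the difference of 0.50 ± 0.12 had an adjusted p of 0.0787, or 0.0381 when genes with a mean under 5 were left out. For Ccnd2 and Ccnd1, whose arrays stand above, the differences with LPS were 0.79 ± 0.22 (adjusted p = 0.14) and 0.67 ± 0.25 (adjusted p = 0.308). All 12 mitosis members were fitted higher in high than in low clones with LPS (median 0.23), and 36 of 45 in the wider list (median 0.13), against 13416 of all 27296 genes; these values share the LPS arrays with the interaction above. Without the LPS array of clone 83, or all of that clone, 9 of 12 members and 30 of 45 genes of the wider list were above 0 (wider median 0.085). Without the LPS array or all of clone 69, 7 or 29, 10 of 12 members were above 0, and without that of clone 29 the wider median was 0.24.

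Without LPS, Myc was the member that passed, at 7.61, 7.69 and 7.92 in high clones against 7.18, 7.14 and 6.69 in low clones (0.74 ± 0.15, a 1.67-fold difference, adjusted p = 0.0295), beside 0.92% of all genes higher and 0.216% lower (0.978% and 0.256% with the clone as a random block). The 3 high clones lay above the 3 low clones. The call was lost when the fit held only the unstimulated arrays (adjusted p = 0.119) and in 11 of 18 fits that left out an array or a clone (adjusted p 0.0525 to 0.128): without any unstimulated array other than that of clone 7, or without both arrays of any clone. At an unadjusted p under 0.05 there were 4 of 39 members, beside 10.5% of all genes. Besides Myc, these were E2f1 (-0.49 ± 0.15, adjusted p = 0.196), Ccne2 (-0.43 ± 0.17, adjusted p = 0.347) and Cdkn2c (-0.35 ± 0.12, adjusted p = 0.26), all lower in high clones. E2f1 read 9.33, 8.84 and 9.12 in high unstimulated arrays against 9.58, 9.60 and 9.57 in low unstimulated arrays, where the low clones hardly varied. At rest the mitosis members were split evenly, 6 above and 6 below 0 (median -0.01, and -0.045 to 0.02 with an array or clone left out). On the means of both arrays of each clone, 0 members passed in limma, beside 1.05% of all genes higher and 0.223% lower. An unadjusted p under 0.05 was reached there by 6 of 39 members, beside 11.2% of all genes.

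**Figure D5:**
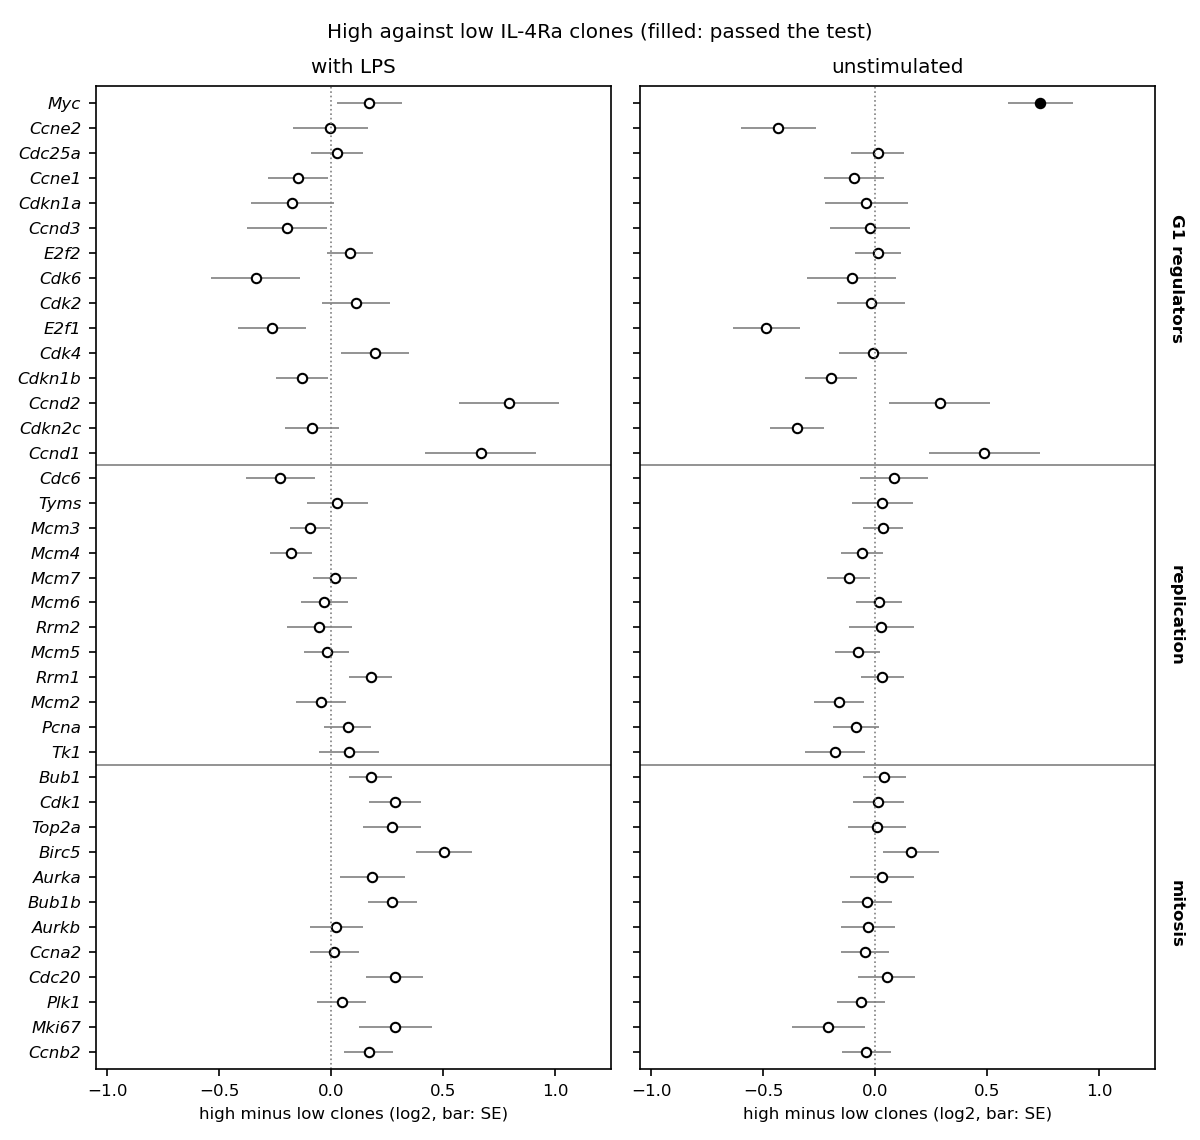
High minus low clones (log2, points; bars are SE) for the 39 members with LPS (left) and unstimulated (right), in the order of the plot of LPS changes; filled points passed the test. Unstimulated Myc (0.74) is the filled point, and all 12 mitosis genes lie to the right of 0 with LPS, or 9 of them without clone 83.

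Of the 123 genes of the wider list, 2 passed as higher in high clones with LPS and on clone means, and 1 without LPS. Among all genes, 0.982% were higher with LPS, 1.05% on clone means and 0.92% without LPS. Among genes with a mean level of 5 or more the shares were 2.14%, 2.30% and 2.02%, so the list was near them. Espl1 (separase, which cuts cohesin at anaphase; chr15:102296293-102324356) read 8.27, 7.94 and 8.33 in high LPS arrays against 7.33, 7.35 and 7.39 in low LPS arrays, and 8.15, 8.08 and 8.19 in high unstimulated arrays against 7.38, 7.32 and 7.28 in low unstimulated arrays. High clones were above low clones in both conditions, by 0.82 ± 0.11 with LPS (adjusted p = 0.00381) and 0.81 ± 0.11 without (adjusted p = 0.00578), and by 0.82 ± 0.09 on clone means (adjusted p = 0.0114). Its call without LPS was lost without clone 29 (adjusted p = 0.0518), and that on clone means without clone 29 or 75 (0.0626 and 0.063). Btg2, an antiproliferative gene and relative of Btg1, read 6.67, 6.82 and 6.83 in high LPS arrays against 5.92, 5.98 and 4.58 in low LPS arrays (1.28 ± 0.28, adjusted p = 0.0469). The lowest value was again that of clone 75. It was lost in 14 of 18 fits that left out an array or a clone (adjusted p 0.0567 to 0.182), and was kept without an LPS array of clone 7, 29 or 75 or without both arrays of clone 75; on clone means it passed with all clones (1.11 ± 0.20, adjusted p = 0.0398) and in none of 6 fits without a clone (0.0556 to 0.123).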

How the data were processed

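RNA of 6 MH-S clones, each with and without LPS, was hybridised to 12 Affymetrix Mouse Gene 2.1 ST arrays. Per the file headers, the authors obtained log2 values in Affymetrix Expression Console by RMA (background correction, quantile normalization, median polish), with NetAffx annotation build 34 on mm10; quantile normalization gives all arrays nearly 1 distribution, so a shift shared by most genes cannot be seen. The deposited workbook also gives a signed fold change of LPS over unstimulated arrays (treated as a score) and p-values and q-values of the authors' unpaired t-test without log2 transformation. The series' value table held the same log2 values (largest difference 0 over 41155 features).

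Of 33793 main features, 29294 had a symbol; 1 feature per symbol left 27296 genes, 1370 of which had several. For 25154 of the features with a symbol, the Entrez gene identifier matched RefSeq, which updated the symbols of 1885 features. All 12 sample columns were used and 0 were left unmapped. The 4 groups were fitted together in limma 3.58.1 (R 4.3.3, statmod 1.5.0), two-sided, with Benjamini-Hochberg adjustment over all genes. High and low clones were also compared on clone means. Arrays of a clone deviated together from their group means (r = 0.1 in clone 75 to 0.415 in clone 83), and the labels give both arrays of a pair the same clone, so the clone was tried as a block (random for high against low clones, correlation 0.2103). Other alternatives were each array or clone left out, only the compared groups, genes with a mean under 5 left out, a variance trend, median centring, the mean of a gene's features, the methods' t-test and the authors' deposited calls. The fit was tested on simulated data. The number of arrays limits the precision.

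Members and lists, roles and motifs were chosen with earlier results of these data known. Array values are given for members that passed in any comparison and for the D-type cyclins. From the wider list, the 3 largest rises and falls of each comparison are named, except that 1 item is not reported here. Promoter windows came from RefSeq tables of GRCm38.p6.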

Additional observations from a re-analysis of the deposited data

Results flagged for a closer look

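Among the LPS changes of the 6 clones, that of clone 75 stood apart from the other 5 for 4 members. The gap to the nearest other clone, divided by the range of all 6, was above Dixon's 95% critical value of 0.625. For Ccnd3 the change in clone 75 was 0.71, and the other clones lay between 0.03 and 0.11. For Cdk4 it was -0.68, with the others between -0.06 and 0.06. Cdk2 changed by -0.27 in clone 75 and by 0.04 to 0.11 elsewhere, and Mcm5 by -0.13 in clone 75 and by 0.02 to 0.10 elsewhere. None of the 4 passed the LPS test over all clones. Chance alone marks about 5% of such sets of values, and 39 members were examined. The LPS array of clone 75 also had the lowest SD of all arrays (2.46); its part in these values was not tested.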

How the results depend on the processing

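No gene that passed turned its sign under the alternatives run, but medians near 0 did, among them that of the wider mitosis list in high clones (0.01 without the clone 73 LPS array). With the clone as a block, the members that passed in low clones numbered 10 in place of 6, and Ccne1 over all clones and Cdc6 in high clones were added; the block changed no other call of a member. Leaving out genes with a mean under 5 gave 10 in low clones (Cdc20, Cdkn1b, Mcm3 and Plk1 were added) and 1 between high and low clones with LPS (Birc5). Fits of only the compared groups gave 2 in high clones, where Ccne2 (adjusted p = 0.119) and Ccnb2 were lost, and 0 between high and low clones without LPS. Leaving out 1 array or clone gave counts of 6 to 13 over all clones, 5 to 7 in low clones, 0 to 5 in high clones and 0 to 1 between high and low clones without LPS; the other comparisons stayed at 0. Over all clones, Mcm4 passed with dim genes left out (adjusted p = 0.0415) or with a variance trend (0.0488), and Cdc20 was lost with median centring (0.0589). The methods' t-test and the authors' deposited table each called 10 members, 4 higher and 6 lower; both lost Ccne2 (0.0932 and 0.0855), Cdc20 (0.0924 and 0.0848) and Myc (0.117 and 0.106). In low clones the LPS calls of Cdkn2c, Ccnb2, Mki67 and Myc held in each of the 18 fits that left out an array or a clone. With 3 clones a group, the other LPS calls of members within 1 phenotype were lost in at least 1 such fit. The causes of these shifts were not tested.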

Other observations

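Mcm2, Rrm2 and Tyms had second features that were not used. That of Tyms lies on the plus strand at chr5:30060899-30062374, opposite to the gene, averaged 7.36 on the log2 scale, and is marked in the annotation as able to cross-hybridise. In the authors' deposited table its signed fold change was -1.08. The second feature of Mcm2 averaged 4.57, with a signed fold change of 1.03 in the authors' deposited table, and that of Rrm2, on the minus strand, averaged 5.09.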
